A study of Mus musculus with 12 samples.

Results

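The SLC26 genes encode membrane proteins that move anions such as chloride, bicarbonate and sulfate, and 7 of the 18514 genes in the deposited count table are described here, namely Slc26a1, Slc26a2, Slc26a3, Slc26a4, Slc26a6, Slc26a9 and Slc26a11. They were chosen by gene symbol with the expression values and group differences of these same libraries already known, so that counts of changed members are a description. All 7 passed the filter on low counts, as did 15484 genes in all. The table holds 11 genes of the family. The remaining 4, Slc26a5, Slc26a7, Slc26a8 and Slc26a10, had between 0 and 25 reads in any library, and Slc26a5, at 0 to 3 reads, did not pass the filter.

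RNA was sequenced from the colorectal tissue of 12 male C57BL/6 mice bought at 4 weeks of age, with 1 library per mouse. There were 4 groups of 3 mice, called Ctrl, Ctrl_Swim, Model and Model_Swim. Model and Model_Swim mice were given azoxymethane (AOM), a colon carcinogen, once at 10 mg/kg, followed by 3 cycles of drinking water with 2% dextran sulfate sodium (DSS), an agent that causes colitis. Ctrl and Ctrl_Swim mice had neither agent. Ctrl_Swim and Model_Swim mice swam for up to 90 min per day from before the carcinogen until the end, while the other mice were put in shallow water. The mice carried no engineered allele, and the sample descriptions do not say whether a Model library held tumour, adjacent mucosa or both. Each library is 1 mouse, so the p-values measure the spread between mice. This spread was estimated once for all 4 groups, although the Model mice differed most among themselves. Pairs of Model mice had a chi-square of reads per degree of freedom of 79.6 to 119, against 7.69 to 23.1 in other groups. The p-values of comparisons with Model thus lean in part on the closer mice of other groups.

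In the colon, Slc26a3 (also called DRA) exchanges luminal chloride for bicarbonate at the apical membrane of surface colonocytes, and together with a sodium-proton exchanger it carries most of the electroneutral uptake of salt. Slc26a2 and Slc26a1 carry sulfate, which cells activate to the sulfate donor PAPS and attach to mucins, proteoglycans and small molecules. Slc26a6 exchanges chloride, oxalate and bicarbonate and is best known from the small intestine and kidney, Slc26a4 (pendrin) is known from the inner ear, thyroid and kidney, Slc26a9 conducts chloride in the stomach and airway, and Slc26a11 is a ubiquitous, less studied member.

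Promoter sequences from RefSeq (GRCm38.p6) were at hand for 5 of the 7 genes, in 6 windows of 250 bases before a transcription start. Those of Slc26a1, which had few reads in the Model mice, and of Slc26a3, the member with the highest level, are shown 5′ to 3′ on the gene's strand. Slc26a1 has 2 windows, at chr5:108675366-108675615 and, for the start further into the gene, at chr5:108674797-108675046, both on the minus strand, and Slc26a3 has 1, at chr12:31437969-31438218 on the plus strand. Capitals mark matches on either strand to the E-box CACGTG, bound among others by the clock activators, to the D-box TTANGTAA, bound by Dbp, Tef and Hlf, or to the nuclear receptor half-site AGGTCA.
Slc26a1, outer start: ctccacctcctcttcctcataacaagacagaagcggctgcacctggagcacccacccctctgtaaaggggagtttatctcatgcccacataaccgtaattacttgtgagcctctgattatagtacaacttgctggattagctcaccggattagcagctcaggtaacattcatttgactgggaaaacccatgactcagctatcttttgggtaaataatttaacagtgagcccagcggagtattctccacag
Slc26a1, inner start: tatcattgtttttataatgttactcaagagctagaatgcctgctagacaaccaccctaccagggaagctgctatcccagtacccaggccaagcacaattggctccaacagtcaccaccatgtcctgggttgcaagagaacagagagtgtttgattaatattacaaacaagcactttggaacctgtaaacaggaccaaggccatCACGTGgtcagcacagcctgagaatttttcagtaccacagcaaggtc
Slc26a3: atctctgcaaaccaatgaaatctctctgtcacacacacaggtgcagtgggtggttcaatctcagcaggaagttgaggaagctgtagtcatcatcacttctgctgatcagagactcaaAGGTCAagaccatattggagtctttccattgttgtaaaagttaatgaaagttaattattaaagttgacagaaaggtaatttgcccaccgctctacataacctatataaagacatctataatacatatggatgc
The inner window of Slc26a1 holds 1 E-box, which begins 47 bases before the start, and the window of Slc26a3 holds 1 half-site, which begins 133 bases before it. Of the 6 windows, 1 held an E-box, 0 held a D-box and 2 held a half-site (the other is that of Slc26a9). Over all 32851 RefSeq windows of this length, 6.02% held an E-box, 2.06% a D-box and 14.0% a half-site. These matches describe the letters and were not tested for binding.

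Slc26a3 and Slc26a2 made up nearly all SLC26 transcript. Their FPKM, a level scaled to transcript length and library size, summed to between 96.8% and 98.5% of the total over the 7 genes in every library. In Ctrl mice the mean level was 149 ± 10.7 FPKM (SD, n = 3) for Slc26a3 and 103 ± 2.12 FPKM for Slc26a2. It was 2.0 ± 1.03 FPKM for Slc26a6, 1.80 ± 0.0592 FPKM for Slc26a11 and 1.43 ± 0.149 FPKM for Slc26a1. Slc26a4 lay at 0.0765 ± 0.0363 FPKM and Slc26a9 was listed at 0 in all 3 Ctrl mice. In this order Slc26a6 and Slc26a11 overlapped between mice, and the other neighbours did not. Slc26a3 was first and Slc26a2 second in each group by mean level, although their libraries overlapped in Ctrl_Swim and in Model. In Model mice the order of the low genes changed, Slc26a1 being last of the 7 at 0.0435 ± 0.0388 FPKM, below Slc26a9 (0.366 ± 0.364 FPKM) and Slc26a4 (0.201 ± 0.152 FPKM), which overlapped each other. The Slc26a4 libraries lay above those of Slc26a1, while Slc26a9 overlapped them, since it was at 0.0119 FPKM in Model 3.

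**Figure D1:**
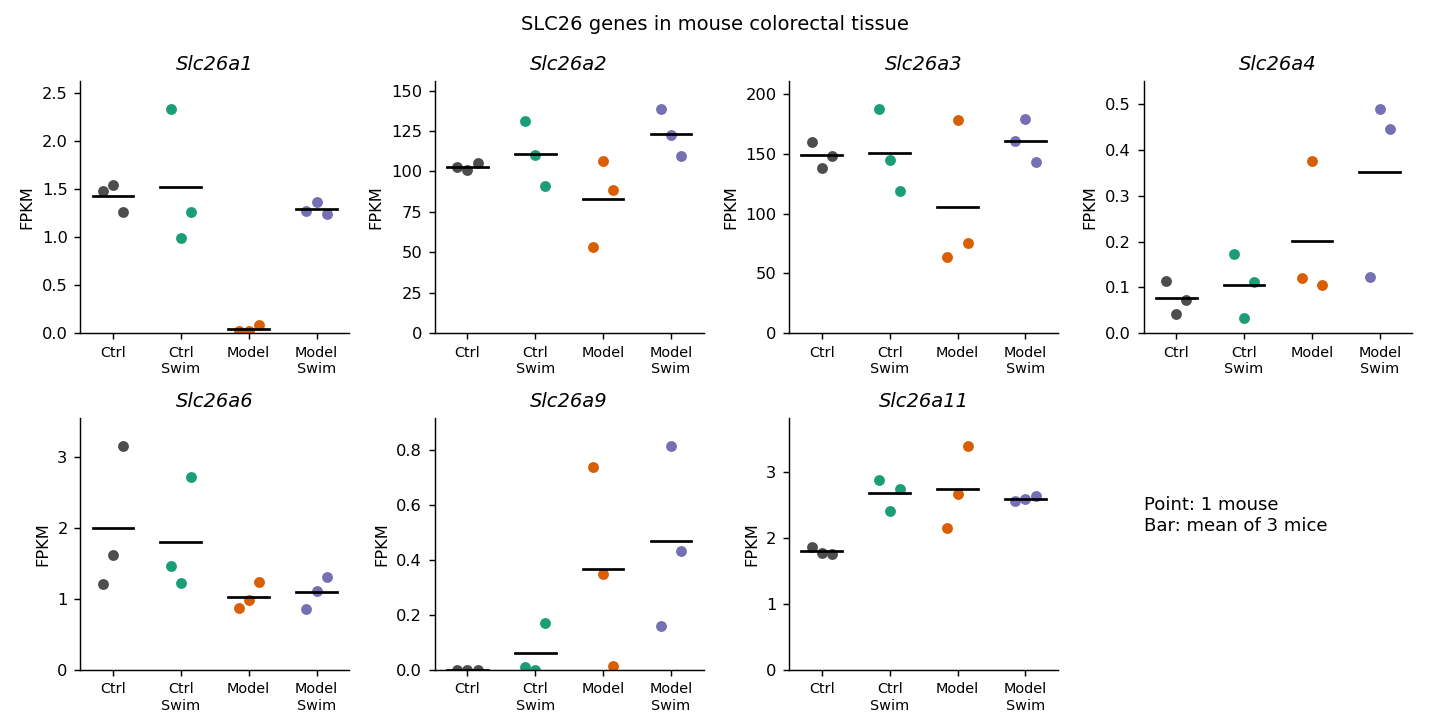
Level of each of the 7 SLC26 genes in FPKM (linear axes from 0, a scale of its own for each gene) in the 4 groups, with 1 point per mouse and a bar at the mean of 3 mice. Slc26a1 lies near 0 in the 3 Model mice only, and Slc26a9 is at 0 in the 3 Ctrl mice.

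The tissue and 1 group of libraries were checked against markers. The 8 genes of the intestinal epithelium list summed to between 9805 and 14310 CPM (counts per 1e6 reads after TMM scaling, edgeR's correction for library composition) in every library, with 9805 to 10060 in Model and 12890 to 14310 in Ctrl. The 6 smooth muscle genes summed to between 5773 and 8862 CPM. The 11 genes of pancreatic acinar cells summed to 43400 CPM (Model 1) and 21140 CPM (Model 3), against 13.1 to 97.9 CPM in the other 10 libraries, so that both libraries hold RNA of pancreas in addition to colon. Model 3 also had the lowest sum over the 4 genes of distal colon and rectum, 20.5 CPM against 77.1 to 250 CPM elsewhere. Total counts lay between 17256953 and 19451055, and a count of 3, the limit that a count of 0 allows, is 0.172 CPM at most. This limit covers counting error only. In bulk tissue, fewer cells of a type and less RNA per cell cannot be told apart.

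Between Model and Ctrl, 3 of the 7 genes met the cutoffs of the study (adjusted p below 0.05, and a change of more than 2-fold up or down), with Slc26a1 and Slc26a6 lower and Slc26a9 higher in Model. Over all genes tested, 7.43% passed. The adjusted p alone was passed also by Slc26a11, thus by 4 of 7 members against 32.7% of all genes. The median log2 fold change was -0.43 over the 7 genes and 0.01 over all genes. In CPM, libraries of Model and Ctrl did not overlap in 5 of the 7, against 44.2% of all genes. Slc26a9 was set apart by 1 read in Model 3. The margin was also narrow for Slc26a2 (396 CPM in Model 2, 409 CPM in Ctrl 2) and Slc26a6 (3.84 CPM in Model 3, 4.08 CPM in Ctrl 1). In FPKM, Slc26a2 and Slc26a6 overlapped. Between Model_Swim and Model, 1 member passed both cutoffs, Slc26a1, which was listed with this difference known. Its pass is thus a description, and the share of all genes that passed, 0.0710%, is no measure for it. The same holds for its part in the counts between Model and Ctrl. Slc26a9, at 0 reads in Ctrl, passed the filter on low counts only through other groups, so its part there is a description too. The call on Slc26a6 (adjusted p = 0.0488, edgeR) was lost in 17 of 23 alternative fits. The share of 7.43% is thus no measure for these 3 calls. Of the 7 genes, 2 (Slc26a1 and Slc26a2) did not overlap between Model_Swim and Model, against 17.0% of all genes. Between Ctrl_Swim and Ctrl, 0 of 7 passed by edgeR (0.168% of all genes), with 1 of 7, Slc26a11, at an unadjusted p under 0.05 against 17.6% of all genes, and 0 passed by DESeq2. Between Model_Swim and Ctrl_Swim, 0 of 7 passed by edgeR (1.00% of all genes), with 1 of 7, Slc26a4, at an unadjusted p under 0.05 against 22.4% of all genes, and DESeq2 gave 0. There 1 of 7, Slc26a9, did not overlap in CPM, against 32.4% of all genes, by a narrow margin (0.766 CPM in Ctrl_Swim 4 and 0.770 CPM in Model_Swim 1), and in reads these 2 mice overlapped, with 15 and 14. These comparisons share groups and are not independent of each other.

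**Figure D2:**
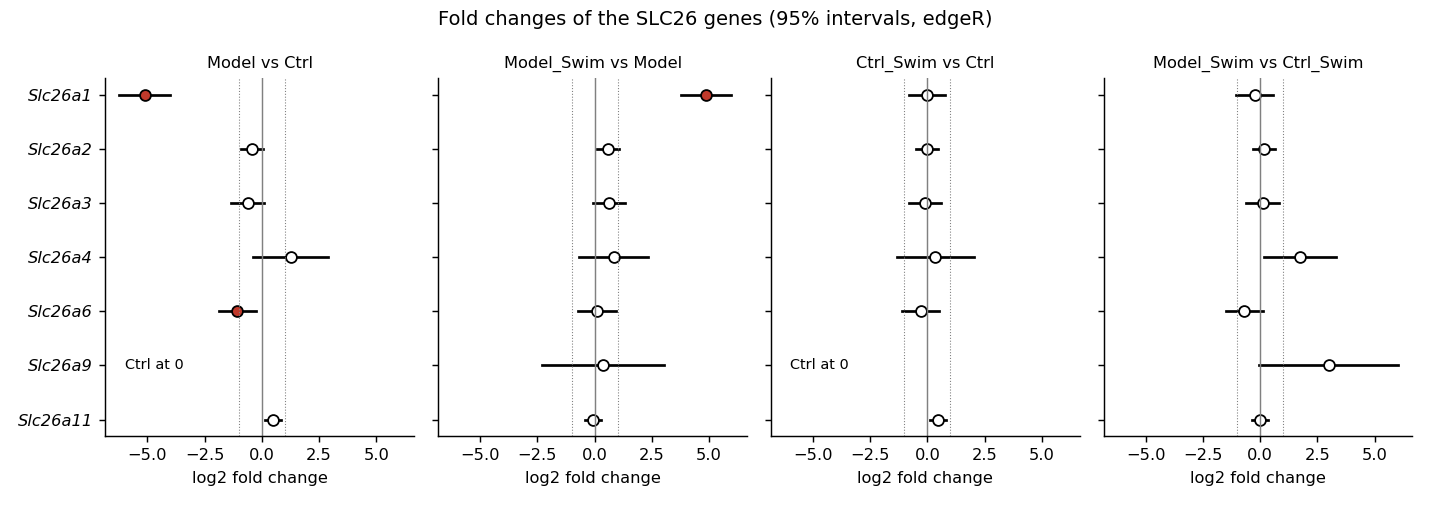
Log2 fold change (point) and its 95% interval (line) from edgeR for the 7 genes in 4 comparisons. Filled points passed both cutoffs, dotted lines mark a log2 fold change of 1 in either direction, and Slc26a9 is left out against Ctrl, where all 3 libraries were at 0.

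Slc26a1, a sulfate and oxalate exchanger, was close to absent in the Model mice. Its read counts were 151, 156 and 128 in Ctrl 1, 2 and 3, and 229, 94 and 120 in Ctrl_Swim 2, 3 and 4. They were 2, 2 and 8 in Model 1, 2 and 3, and 121, 130 and 121 in Model_Swim 1, 2 and 3. The Model mice lay below every other mouse, and Model_Swim mice lay within the range of the Ctrl_Swim mice. From the summed reads, 12 in Model and 435 in Ctrl, the level in Model was 36.1-fold lower (95% exact counting interval 20.5 to 70.5, counting error only). Against Model_Swim, with 372 reads, it was 30.5-fold lower (17.2 to 59.5). Model_Swim and Ctrl_Swim differed by -0.23 on the log2 scale (95% interval -1.03 to 0.56), and Ctrl_Swim and Ctrl by -0.01 (-0.80 to 0.78). Since Slc26a1 was listed with this pattern known, no p-value is given for it. Model 2, which holds no excess of pancreatic RNA, had 2 reads, as Model 1 did. The call between Model_Swim and Model was lost with a covariate for pancreatic RNA, with a log2 difference of 4.88 as before, and with a term dividing the libraries by their pancreatic reads, with 3.98. All 3 Model libraries lie above that division and all 3 Model_Swim libraries below it.

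Slc26a1 (chr5:108669878-108675569, minus strand, GRCm38 in GENCODE M21) lies inside the span of Idua (chr5:108660331-108684557), a lysosomal hydrolase gene on the plus strand. Of the 4050 exonic bases of Slc26a1, 141 (3.48%) are exonic in Idua too. The libraries were made with a stranded kit, and the strand setting of the counting is not given in the sources used here. Idua had 300, 317 and 304 reads in the Ctrl mice, 317, 364 and 388 in the Model mice and 329, 297 and 328 in the Model_Swim mice. Its log2 difference between Model and Ctrl was 0.22 (95% interval -0.04 to 0.49, adjusted p = 0.167, edgeR), an interval that leaves room for a fall of 0.04 at most.

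**Figure D3:**
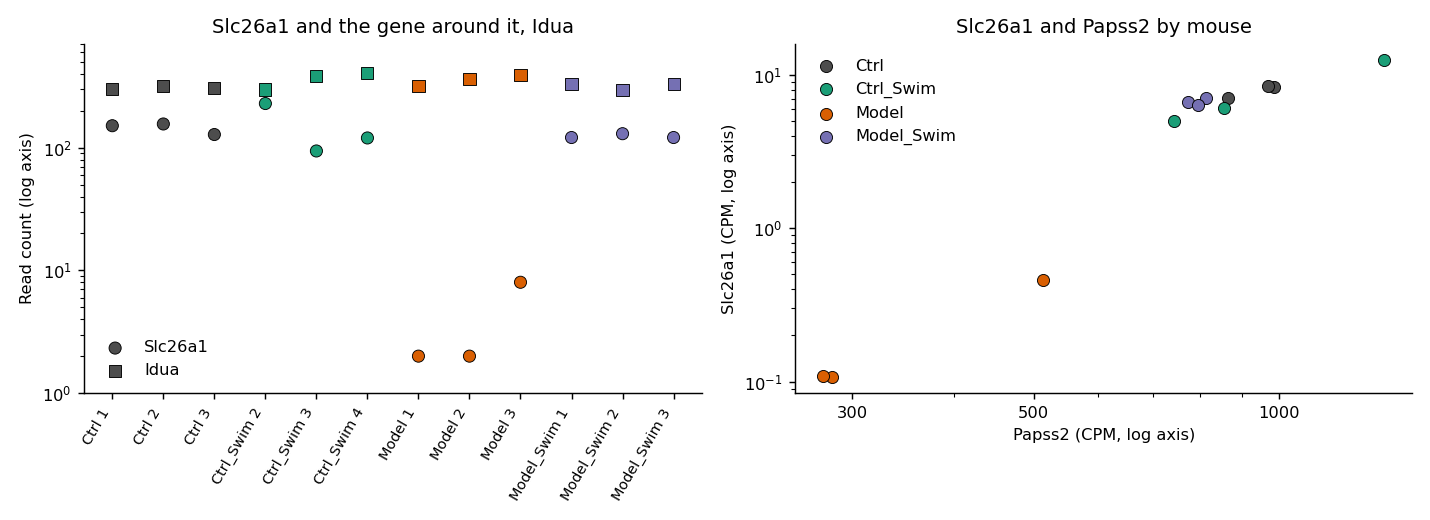
Left, read counts (log axis) of Slc26a1 (circles) and Idua (squares) in each of the 12 libraries. Right, Slc26a1 against Papss2, both in CPM on log axes, 1 point per mouse, where the 3 Model mice lie apart at low levels of both genes.

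Gene models named Gm with a number, or ending in Rik, were left out of all rankings of nearest genes. Of the remaining tested genes, the 10 whose log2 CPM followed Slc26a1 most closely over the 12 libraries were St3gal5 (Pearson r 0.98), Mpst (0.97), Papss2 (0.97), Stard5 (0.97), Vsig2 (0.96), Nr1d2 (0.96), Rxra (0.96), Nr1d1 (0.95), Akr1c13 (0.95) and Akr1c12 (0.95). Over the 9 libraries of the other groups, the r with Slc26a1 was 0.95 for Papss2, 0.89 for Stard5, 0.84 for Rxra, 0.83 for Mpst, 0.79 for St3gal5, 0.78 for Akr1c12, 0.67 for Akr1c13 and 0.55 for Vsig2, while Nr1d2 stood at 0.26 and Nr1d1 at -0.04. Papss2 makes PAPS from sulfate, and Mpst is a sulfurtransferase of cysteine breakdown. Nr1d1 and Nr1d2 are the clock repressors Rev-erb alpha and beta. The 9-library values were chosen after the data were seen.

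Papss2, the gene of sulfate activation that follows Slc26a1, was lower in Model. It stood at 940 ± 64.9 CPM (SD, n = 3) in Ctrl mice, 981 ± 320 CPM in Ctrl_Swim mice, 358 ± 135 CPM in Model mice and 793 ± 19.9 CPM in Model_Swim mice. The log2 difference was -1.39 between Model and Ctrl (SE 0.25, adjusted p = 0.00284), and the libraries did not overlap. Between Model_Swim and Model it was 1.15 (SE 0.25), also without overlap, but with an adjusted p of 0.118 it did not pass. The 18 genes of the clock list summed to 686 to 760 CPM in Model, 945 to 1001 CPM in Ctrl, 1024 to 1276 CPM in Ctrl_Swim and 1042 to 1103 CPM in Model_Swim. Their part in the level of Slc26a1 was not tested.

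Slc26a3, the chloride-bicarbonate exchanger, did not pass the test in any comparison, and the Model mice differed widely among themselves. Its level was 63.4 FPKM in Model 1, 178 FPKM in Model 2 and 75.8 FPKM in Model 3. The Ctrl mice lay at 160, 138 and 148 FPKM, the Ctrl_Swim mice at 188, 145 and 119 FPKM, and the Model_Swim mice at 161, 179 and 143 FPKM. Model 1 and Model 3 were thus the lowest of the 12 libraries, and Model 2 was above all Ctrl mice. The log2 difference between Model and Ctrl was -0.61 (95% interval -1.33 to 0.10, adjusted p = 0.162), and between Model_Swim and Model 0.63 (-0.09 to 1.34, adjusted p = 0.432). Both calls depended on Model 2. Without it the differences were -1.18 (adjusted p = 0.00403) and 1.20 (adjusted p = 0.0264). With Model 2 as the only Model library they were 0.10 and -0.10, values given without a test since 1 mouse has no spread of its own.

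The 2 libraries with low Slc26a3 are the 2 with pancreatic RNA. A covariate for the mean log2 CPM of the acinar genes was added to the edgeR fit. With it, the log2 difference was 0.08 between Model and Ctrl (adjusted p = 0.851) and -0.45 between Model_Swim and Model (adjusted p = 0.609). The sign was the opposite in both cases, and neither passed. The covariate was 11.6 in Model 1 and 10.6 in Model 3, against 2.30 in Model 2 and no more elsewhere. It thus nearly marks these 2 mice, and the fitted Model level rests mainly on Model 2. Pancreatic RNA cannot be told apart here from anything else that differed between Model 2 and the other 2 Model mice. Summed without Slc26a3, the 8 genes of mature colonocytes reached 3500, 5494 and 12570 CPM in Model 1, 2 and 3, against 11630 to 16510 CPM in the 9 other mice. Model 2 thus combined a high Slc26a3 with a low colonocyte sum, and Model 3 a low Slc26a3 with a colonocyte sum in the range of the other groups. Car1, a carbonic anhydrase and the most abundant of the 8 genes, was at 409, 277 and 4725 CPM in Model 1, 2 and 3 and between 5674 and 9119 CPM elsewhere. Genes of surface colonocytes differed among themselves. Car4, another carbonic anhydrase, was at 215, 657 and 346 CPM in Model 1, 2 and 3, highest in Model 2 as Slc26a3 was, and Ctrl mice lay between 275 and 357 CPM. The water channel Aqp8 ranged from 221 to 499 CPM in the Model mice and from 194 to 250 CPM in the Ctrl mice. A processed pseudogene, Gm9359, lies within the span of Slc26a3 and shares 0 exonic bases with it.

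**Figure D4:**
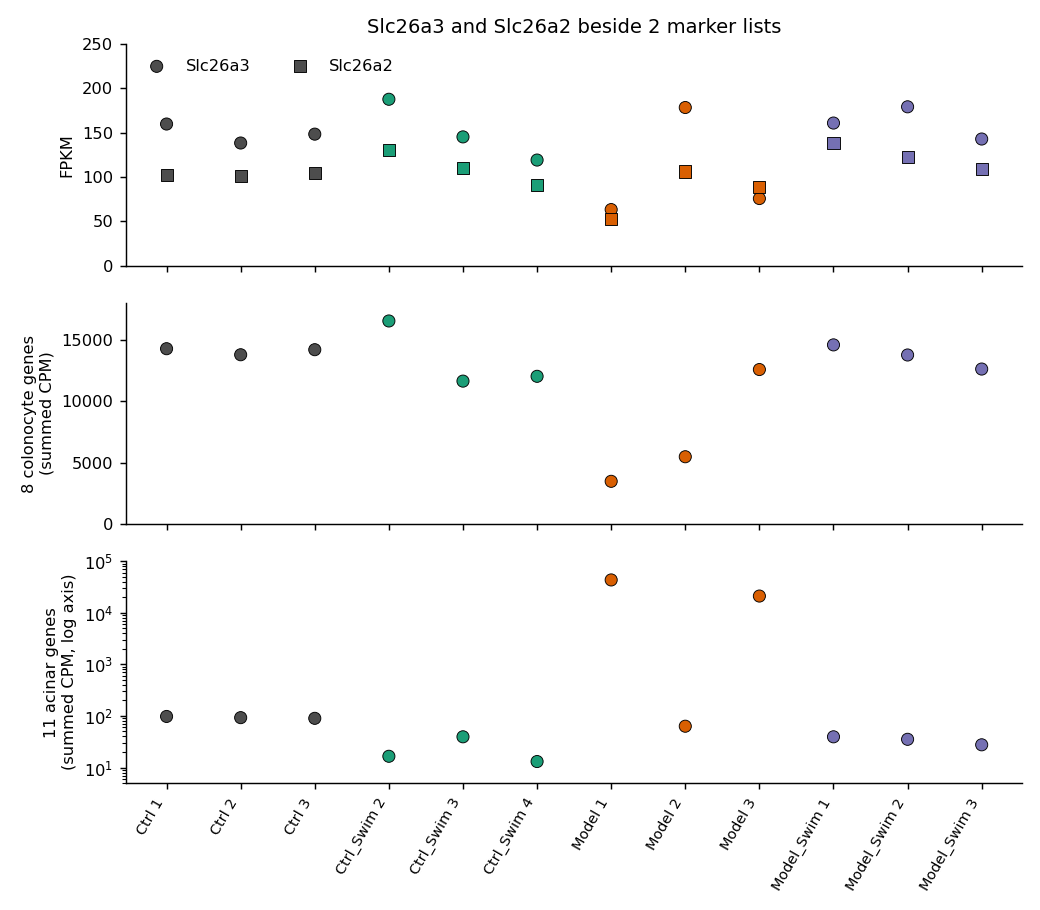
Top, FPKM of Slc26a3 (circles) and Slc26a2 (squares) in each library. Middle and bottom, summed CPM of 8 mature colonocyte genes and, on a log axis, of 11 pancreatic acinar genes. Slc26a3 is lowest in Model 1 and Model 3, the 2 libraries with acinar sums of 43400 and 21140 CPM.

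Slc26a2, the sulfate transporter of cartilage and colon, varied less. It was at 103, 101 and 105 FPKM in the Ctrl mice and at 131, 110 and 90.8 FPKM in the Ctrl_Swim mice. It was at 53.1, 106 and 88.7 FPKM in the Model mice and at 139, 122 and 109 FPKM in the Model_Swim mice. Model 1 was the lowest of all. On the CPM scale of the test, Model lay below Ctrl without overlap, with a log2 difference of -0.43 (95% interval -0.92 to 0.05, adjusted p = 0.151). Model_Swim lay above Model without overlap, by 0.59 (0.11 to 1.08, adjusted p = 0.286), and neither difference passed. Slc26a2 and Slc26a3 followed each other with a Pearson r of 0.89 over the 12 libraries, the highest of the 21 pairs of members. The ratio of their FPKM, Slc26a3 over Slc26a2, was 1.16 to 1.68 in 11 libraries and 0.855 in Model 3, the only library with more Slc26a2 than Slc26a3.

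The genes nearest to Slc26a2 in pattern were Ankrd9 (r 0.95), Bcar1 (0.95), Plekha8 (0.94), Ank3 (0.94) and Slc6a17 (0.94). Those nearest to Slc26a3 were Slc20a1, a sodium-phosphate transporter (0.91), Crip1 (0.91), Nit1 (0.91), Rnf152 (0.89) and Slc26a2 (0.89). The acinar sum went the opposite way, with an r of -0.86 for Slc26a3 and -0.75 for Slc26a2 on log2 scales.

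Slc26a6, the exchanger of chloride, oxalate and bicarbonate, fell in Model against Ctrl, by a narrow margin. The Ctrl mice had 74, 98 and 192 reads and the Ctrl_Swim mice 86, 70 and 155. The Model mice had 50, 55 and 67 reads and the Model_Swim mice 49, 63 and 76. In CPM the 3 Model mice lay below the 3 Ctrl mice, among which Ctrl 3 was high. The log2 difference was -1.07 (SE 0.38, adjusted p = 0.0488), and without Ctrl 3 it was -0.55 (adjusted p = 0.25). The adjusted p rose above 0.05 without any 1 of 9 of the 12 mice. Both AOM/DSS groups were low, and averaged over swimming the difference was -0.88 (95% interval -1.46 to -0.30, adjusted p = 0.0261), which passes the adjusted p, as 33.4% of all genes do, but not the fold cutoff. Model_Swim and Model differed by 0.09 (-0.74 to 0.93).

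The gene nearest to Slc26a6 in pattern was Mttp, which loads lipid onto chylomicrons (r 0.91), followed by the intestinal chemokine Ccl25 (0.89), the triglyceride enzyme Dgat1 (0.89) and Suox, the sulfite oxidase (0.89). Mttp had 336 reads in Ctrl 3 and 265 in Ctrl_Swim 4, where Slc26a6 was high, and between 50 and 122 reads in the 6 AOM/DSS mice. The nearest genes of Slc26a4, Slc26a6, Slc26a9 and Slc26a11 were looked up after the values of these members were seen.

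Slc26a9, an epithelial chloride channel and exchanger, was detected mainly in AOM/DSS mice. It had 0 reads in each of the 3 Ctrl mice and 1, 0 and 15 reads in Ctrl_Swim 2, 3 and 4. It had 66, 30 and 1 reads in Model 1, 2 and 3, and 14, 72 and 39 reads in Model_Swim 1, 2 and 3. Model 3 was thus close to the Ctrl mice, while Ctrl_Swim 4, an untreated mouse, was at the level of Model_Swim 1. Against a floor of 3 counts in each Ctrl library, 0.165 CPM on average, the mean level was at least 10.6-fold higher in Model and at least 13.7-fold higher in Model_Swim. The bound for Model was 5.14-fold without Model 1 and 15.7-fold without Model 3, and that for Model_Swim 8.62-fold without Model_Swim 2. With 0 reads in Ctrl, Slc26a9 passed the filter on low counts only through libraries of the other groups, mainly of AOM/DSS mice. Its adjusted p-values (edgeR) are thus a description. The adjusted p between Model and Ctrl was 0.0285. It was 0.0691, 0.0738 and 0.0718 without Ctrl 1, 2 or 3, 0.062 without Model 1 and 0.0525 without Model 2, so the call rested on each of these 5 mice. Without Model 3 it was 0.00787. Averaged over swimming, AOM/DSS mice were higher with an adjusted p of 0.0136. The fitted fold change of a gene at 0 in a group depends on the prior count and is not given.

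The level of Slc26a9 moved with markers of squamous epithelium, the lining of the anal canal. The 7 squamous genes summed to 481, 1360 and 3.84 CPM in Model 1, 2 and 3 and to 102, 909 and 1027 CPM in Model_Swim 1, 2 and 3. They summed to 42.1, 2.50 and 305 CPM in Ctrl_Swim 2, 3 and 4 and to 3.46 to 4.53 CPM in the Ctrl mice. All 6 libraries with over 10 reads of Slc26a9 had squamous sums of 102 CPM or more, and the 6 others had sums of 42.1 CPM or less. Each of the 7 genes, Krt5, Krt14, Krt13, Krt4, Krt6a, Trp63 and Dsg3, followed Slc26a9 with an r between 0.84 and 0.96. Dsg3 was at 0 in 1 or more Ctrl and Ctrl_Swim mice, and Trp63 was at 0 in 1 or more Ctrl_Swim mice. The nearest genes overall were Atg9b (0.98), Lcn2 (0.98), Mt4 (0.98), Serpinb11 (0.97) and Rgs12 (0.97). The part of squamous epithelium in the difference between Model and Ctrl was not tested.

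**Figure D5:**
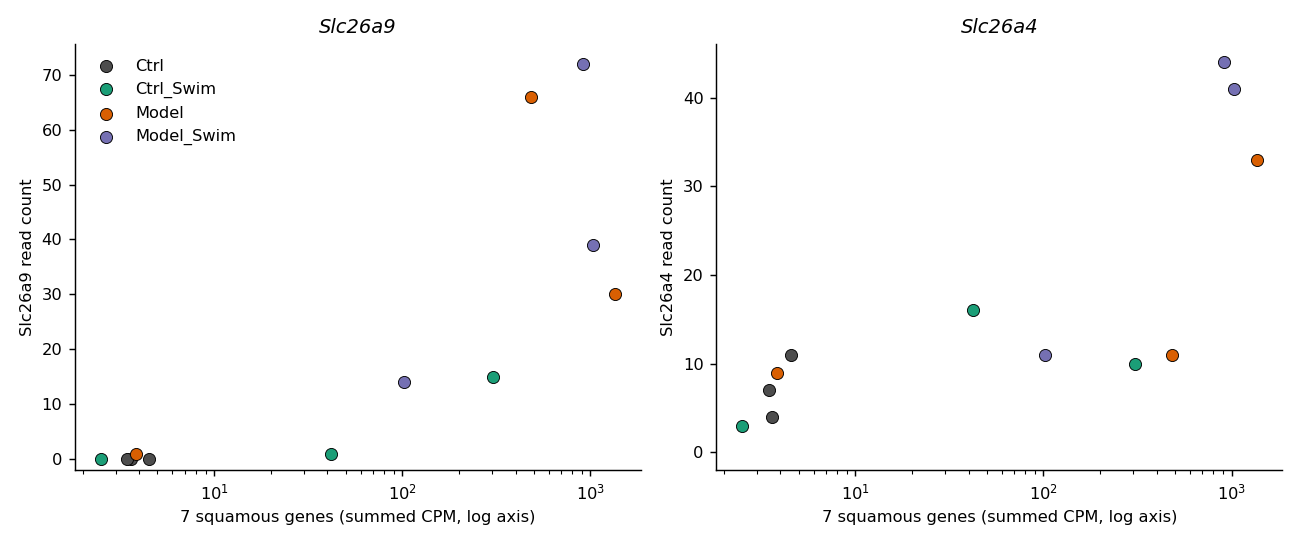
Read counts of Slc26a9 (left) and Slc26a4 (right) against the summed CPM of 7 squamous genes (log axis), with 1 point per mouse. The 6 mice with squamous sums of 102 CPM or more have 14 or more reads of Slc26a9, and the 3 mice with the most Slc26a4 are those with the highest squamous sums.

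Slc26a4, the exchanger pendrin, was low throughout. It had 11, 4 and 7 reads in the Ctrl mice, 16, 3 and 10 in the Ctrl_Swim mice, 11, 33 and 9 in the Model mice and 11, 44 and 41 in the Model_Swim mice. Model 2, Model_Swim 2 and Model_Swim 3 stood above the other 9 mice, and these 3 also had the highest squamous sums. Slc26a4 and Slc26a9 followed each other with an r of 0.73, although Model 1 had 66 reads of Slc26a9 and 11 of Slc26a4. The groups overlapped in each of the 4 comparisons. Averaged over swimming, AOM/DSS mice were higher by 1.49 on the log2 scale (95% interval 0.35 to 2.63, adjusted p = 0.0462), and without Model 2 by 1.10 (adjusted p = 0.131). The call was lost without any 1 of 8 of the 12 mice. The genes nearest to Slc26a4 were Pira6 (0.93), Klf10 (0.91), Rhov (0.89), Klhl29 (0.87) and Pld2 (0.87).

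Averaged over swimming, 3 of the 7 genes passed both cutoffs between AOM/DSS mice and the others (Slc26a1, Slc26a4 and Slc26a9), against 4.29% of all genes. In the interaction, which asks whether swimming had another effect in AOM/DSS mice than in untreated mice, 0 of 7 passed by edgeR, as did 0% of all genes (2947 of these at an unadjusted p under 0.05, and 213 called by DESeq2). At an unadjusted p under 0.05 there were 2 of 7, Slc26a1 and Slc26a11, and DESeq2 called 1, Slc26a1. Since Slc26a1 was listed with its pattern known, its part in these counts and in those averaged over swimming is a description. So is the part of Slc26a9 averaged over swimming, since it passed the filter on low counts mainly through AOM/DSS mice. The call on Slc26a4 there was lost without any 1 of 8 of the 12 mice. The share of 4.29% is thus no measure for these calls.

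Slc26a11 was the least variable of the low members, between 1.76 and 3.40 FPKM. It was at 1.86, 1.77 and 1.76 FPKM in the Ctrl mice, at 2.88, 2.42 and 2.74 FPKM in the Ctrl_Swim mice, at 2.15, 2.67 and 3.40 FPKM in the Model mice and at 2.56, 2.59 and 2.64 FPKM in the Model_Swim mice. The Ctrl mice were the lowest 3 of the 12, with no overlap with any other group. Model was higher than Ctrl by 0.49 (SE 0.16, adjusted p = 0.0379), under the fold cutoff. The adjusted p was 0.0807 with the replicate block, 0.13 with the acinar covariate and 0.095 in the fit of only the groups compared, and it rose above 0.05 without any 1 of 5 of the 12 mice, up to 0.106 without Model 3. Ctrl_Swim was higher than Ctrl by 0.45 (SE 0.16, adjusted p = 0.202), which did not pass, and 27.5% of all genes had no overlap there. Ctrl is shared by both comparisons. The 4 nearest genes were Stard9 (0.93), Adrbk2 (0.93), Rsrp1 (0.92) and Zfp607 (0.91).

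Of 37 genes listed for ion transport and sulfate handling in epithelia, here called linked transport genes, 35 were tested. Joint work with SLC26 exchangers was not tested for any of them. Between Model and Ctrl, 9 passed both cutoffs, against 7.43% of all genes, and all 9 were lower in Model. Of all genes tested, 1150 passed there, 961 of them higher in Model. By the adjusted p alone 21 were lower and 0 higher, against 16.2% and 16.5% of all genes. The share of 16.2% also belongs beside the counts of lower genes per subgroup below. The other 14 did not pass, among them Slc4a9 (1.87), Ano1 (0.56), Atp12a (0.46), Car4 (0.38) and Slc9a3 (0.30) with log2 differences above 0. The median log2 difference was -0.65 over the 35 genes. The epithelial list was low in the same mice, at 9805 to 10060 CPM in Model and 12890 to 14310 CPM in Ctrl, and its part in these differences was not tested. Within it, Cdh1 overlapped, at 1063 to 1315 CPM in Model and 1191 to 1265 CPM in Ctrl. The others lay lower in Model without overlap, Epcam narrowly (1281 to 1469 CPM in Model, 1508 to 1658 CPM in Ctrl). With the acinar covariate 5 of the 35 passed both cutoffs in place of 9, and without Model 1, which held the most acinar RNA, 5 passed as well. Both members left untested, Slc4a1 and Slc13a4, were at the edge of detection.

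Sulfate uptake and sulfation was the subgroup with the most such genes, 8 of 10 tested lower by the adjusted p and 4 of them by both cutoffs. Besides Papss2 these were Sult1c2 (log2 difference -1.35, SE 0.24, adjusted p = 0.00261) and Sult1a1 (-1.28, adjusted p = 0.00567), which transfer sulfate to phenols and other small molecules, and Suox (-1.13, adjusted p = 0.00486), which makes sulfate from sulfite. Slc13a1, the sodium-sulfate cotransporter, stood at 29.2 ± 8.19 CPM among Ctrl mice and 12.5 ± 13.4 CPM among Model mice (adjusted p = 0.122). Ethe1, an enzyme of sulfide oxidation, was lower by the adjusted p alone (-0.83, adjusted p = 0.00895).

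Of 9 genes of chloride channels and secretion, 6 were lower by the adjusted p. Kcne3, a subunit of the basolateral potassium channel that drives chloride secretion, passed both cutoffs (-1.02, adjusted p = 0.00061), as did Clca1, a protein of goblet cell mucus (-1.38, adjusted p = 0.0483). Kcnq1, the partner of Kcne3, was at -0.90 (adjusted p = 0.000261), and Cftr, the apical chloride channel, at -0.81 (adjusted p = 0.000841). Slc12a2, the cotransporter that loads chloride into the cell, was at -0.41 (adjusted p = 0.00452). Clca1 belongs to the goblet cell list and makes up much of its sum. The 7 genes summed to 37680 to 48240 CPM in Ctrl, 13820 to 18020 CPM in Ctrl_Swim, 14210 to 34430 CPM in Model and 17070 to 31020 CPM in Model_Swim. Zg16, another goblet cell gene, ranged from 1110 to 1698 CPM in the Ctrl mice and from 1709 to 1908 CPM in the Model mice.

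Of 6 sodium-proton exchangers and scaffolds, 2 were lower by the adjusted p. Pdzk1, a scaffold that binds SLC26 exchangers, passed both cutoffs, falling from 2.43 ± 1.45 CPM to 0.218 ± 0.196 CPM (adjusted p = 0.0133), and the scaffold Slc9a3r1 was at -0.63 (adjusted p = 0.00795). Slc9a3, the exchanger that pairs with Slc26a3 in salt uptake, stood at 201 ± 33.3 CPM among Ctrl mice and 247 ± 79.6 CPM among Model mice (adjusted p = 0.353), and Slc9a2 was at -0.58 (adjusted p = 0.0717). Of 5 tested genes of bicarbonate transport and the proton pump, 3 were lower. The sodium-bicarbonate cotransporter Slc4a4 passed both cutoffs (-1.18, adjusted p = 0.00131), and Slc4a2 (-0.65, adjusted p = 0.0144) and Slc4a7 (-0.43, adjusted p = 0.0342) passed the adjusted p. Of 5 carbonic anhydrases, which supply bicarbonate, 2 were lower, with Car2 past both cutoffs (-1.19, adjusted p = 0.00038). Car1, at -1.88, did not pass (adjusted p = 0.0938).

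Between Model_Swim and Model, 0 of the 35 genes passed by edgeR (0.0710% of all genes), the lowest adjusted p being 0.118, and DESeq2 called 1. At an unadjusted p under 0.05 there were 12 of 35, against 13.6% of all genes. The median log2 difference was 0.21 over the 35 and -0.01 over all genes. Between Ctrl_Swim and Ctrl, 1 of 35 passed, Clca1, against 0.168% of all genes. Its log2 difference was -2.51 (adjusted p = 0.0465), and the call was lost without any 1 of 8 mice. Between Model_Swim and Ctrl_Swim, 0 passed both cutoffs by edgeR (1.00% of all genes) or DESeq2, and 13 of 35 had an unadjusted p under 0.05 against 22.4% of all genes. By the adjusted p alone 5 were lower, against 1.69% of all genes, among them Kcnq1 (-0.49, adjusted p = 0.00756), Car2 (-0.65, adjusted p = 0.0194) and Cftr (-0.50, adjusted p = 0.0308).

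Markers of the remaining lists moved as follows. The 6 leukocyte genes summed to 131 to 156 CPM in Ctrl, 132 to 242 CPM in Ctrl_Swim, 251 to 311 CPM in Model and 189 to 212 CPM in Model_Swim. The 3 kidney proximal tubule genes found in the table, looked at because Slc26a1 and Slc26a4 are known from kidney, summed to 0.872 to 2.86 CPM, with Umod at 0 in 1 or more mice of every group.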

How the data were processed

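RNA was sequenced from colorectal tissue of 12 mice, 3 per group, with groups taken from the sample titles. The authors used Trimmomatic for trimming, HISAT2 for alignment to GRCm38.p6 and HTSeq-count for counting per gene, and they deposited raw counts and, from Cufflinks, FPKM values for 18514 genes listed by symbol. Tool versions and the annotation release are not given in the sources used here. RNA extraction is named as TRIzol in the study's methods and as a mirVana kit in the sample descriptions.

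Counts were analysed with edgeR 4.0.16 in R 4.3.3. After TMM scaling and filterByExpr (minimum count 10), all 4 groups entered 1 quasi-likelihood fit, with Benjamini-Hochberg adjustment over the 15484 genes tested. Genes passed below an adjusted p of 0.05 and beyond a 2-fold change up or down. The 6 comparisons were Model with Ctrl, Model_Swim with Model, Ctrl_Swim with Ctrl and with Model_Swim, the interaction of swimming with AOM/DSS, and AOM/DSS averaged over swimming. Log2 CPM used a prior count of 2. Intervals are at 95%, those of count ratios being exact Clopper-Pearson intervals on the split of the reads. Levels were compared between genes only in FPKM. Total counts of 17256953 to 19451055 put a count of 3 at 0.153 to 0.172 CPM. The code was tested on simulated data.

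The 7 members, the 37 linked transport genes (chloride channels and secretion, sodium-proton exchange and scaffolds, bicarbonate transport and proton pump, carbonic anhydrases, sulfate uptake and sulfation), the 10 marker lists (intestinal epithelium, mature colonocytes, goblet cells, pancreatic acinar cells, squamous epithelium, smooth muscle, leukocytes, kidney proximal tubule, distal colon and rectum, clock genes) and the tests were chosen with earlier results of these data known. By the naming rule, the text gives all 7 members, the other family genes by counts, genes overlapping a member, linked genes past the cutoffs and otherwise up to 3 per subgroup by level, and the tested genes with the highest Pearson r (10 for Slc26a1, 5 each for Slc26a2 and Slc26a3). Linked genes past the adjusted p alone that fall outside this rule were named after their values were seen. Rankings by Pearson r leave out gene models named Gm with a number or ending in Rik. Positions are from GENCODE M21. Promoter windows of 250 bases are from RefSeq, and Slc26a2 and Slc26a11 were not matched.

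Alternatives were DESeq2 size factors in edgeR, DESeq2 1.42.0, no filter, separate fits of each pair of groups, a block for the replicate number, no fold cutoff, a covariate for the acinar list, a term dividing libraries at 0.02% of the acinar level of Model 1 and 3, Model 2 as the only Model library, limma 3.58.1 on log2(FPKM + 1) and log2(FPKM + 0.1) where the mean FPKM was 0.5 or more, the former also without this filter, and leaving out each mouse. No library was a repeat of another.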

Additional observations from a re-analysis of the deposited data

How the results depend on the processing

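Over 24 alternatives, 196 of 238 counts of genes passing stayed within 1.5 times the reported count and 0 of the values of single members reversed in a called direction, while 57 values that passed neither way changed sign. Between Model and Ctrl, 1 member passed instead of 3 with the acinar covariate, in the fit of only the groups compared and in the 3 limma fits. Between Model_Swim and Model, 0 passed instead of 1 with the acinar covariate, in the fit of only the groups compared, with the term for the division by pancreatic reads and in limma on log2(FPKM + 1) without a filter. In the interaction, 1 passed instead of 0 by DESeq2 and with Model 2 as the only Model library. Averaged over swimming, 1 passed instead of 3 in limma on log2(FPKM + 0.1), and 0 in limma on log2(FPKM + 1) with or without the filter. Of the linked transport genes, between Model and Ctrl 5 passed instead of 9 with the acinar covariate and 21 by the adjusted p alone. Between Model_Swim and Model, 1 passed instead of 0 by DESeq2 and 5 with Model 2 as the only Model library. Between Ctrl_Swim and Ctrl, 0 passed instead of 1 with the replicate block, with the division term and in the 3 limma fits, and between Model_Swim and Ctrl_Swim 5 passed instead of 0 by the adjusted p alone. The cause of these changes was not tested, except that dropping the fold cutoff can only add genes.

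Leaving out 1 mouse at a time gave 1 to 3 members between Model and Ctrl, 1 to 2 between Model_Swim and Model (2 without Model 2), 0 to 1 in the interaction (1 without Ctrl_Swim 2 or any single Model mouse) and 2 to 3 averaged over swimming. The low value of 1 between Model and Ctrl came without Ctrl 2, Ctrl 3 or Model 1. For the linked genes it gave 5 to 11 between Model and Ctrl (5 without Model 1), 0 to 5 between Model_Swim and Model (5 without Model 3) and 0 to 1 between Ctrl_Swim and Ctrl (0 without any single Ctrl or Ctrl_Swim mouse, Model_Swim 1 or Model_Swim 2). Both remaining comparisons of members, Ctrl_Swim vs Ctrl and Model_Swim vs Ctrl_Swim, stayed at 0 throughout.

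For same-numbered mice of different groups, the correlations of their deviations from the group means lay between -0.261 and 0.564 (median 0.00466, 15 pairs). For differently numbered mice they lay between -0.557 and 0.451 (median -0.0308, 39 pairs). The highest value was that of Ctrl_Swim 3 and Model 3. These ranges overlap and cannot settle whether the numbers pair the mice. With the replicate block, 3 members passed between Model and Ctrl, 1 between Model_Swim and Model, 0 in the interaction and 2 averaged over swimming. Slc26a4, Slc26a9 and, in Model, Slc26a1 rest on few reads, which limits the precision of their fold changes.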
